A study of Mus musculus with 14 samples.

Results

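H3K4 methyltransferases work in complexes that share a core of WDR5, RBBP5, ASH2L and DPY30 and differ in the further subunits that join each enzyme. The 8 genes described here, Men1, Psip1, Cxxc1, Wdr82, Hcfc1, Ncoa6, Paxip1 and Kdm6a, encode such complex-specific subunits. They were chosen by name from a list of 8 among the 21938 protein-coding genes of GENCODE release M21 on the mouse chromosomes, with earlier results of the same data known. It was known in particular that Men1 lies in a run without sites. The question was where H3K4me1 sites lie over each gene and its 10 kb flanks, relative to transcriptional start sites (TSSs) and CpG islands. Coordinates are those of mm10 (GRCm38).

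The sites come from ChIP-seq of H3K4me1 in iMEF cells, immortalized mouse embryo fibroblasts. All libraries carry the same changes. Exon 4 of the endogenous Ash2l alleles is deleted, and a lentivirus supplies human ASH2L with an N-terminal FKBP12F36V tag, so that the cells depend on the fusion protein. The cells used, NG3, are a single clone. The control, called WT in the labels, had no dTAG treatment and carries the fusion as well. The other groups were treated with dTAG, a PROTAC that leads to degradation of the fusion, for 30 min, 2 h, 4 h, 8 h or 16 h. Each of the 6 conditions had 2 H3K4me1 libraries, and with 2 input libraries (control, 16 h) the series has 14. The deposited table pools them into 1 set of 160144 sites with a start and an end each. It gives no read count, signal, library or time point, so the values below have no replicate error and none was tested. A site was present in at least some of the samples, and its change upon loss of ASH2L was not analysed here. Depth per library is not part of the table. RNA is not part of it either, so cell identity could not be checked against marker genes.

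The subunits fall into groups by the enzyme they join. Menin, the product of Men1, is a tumour suppressor that binds KMT2A and KMT2B, and LEDGF, the product of Psip1, reads methylated H3K36 and links these enzymes to chromatin. CXXC1 (also CFP1), which binds unmethylated CpG, and WDR82, which binds phosphorylated RNA polymerase II, belong to SETD1A and SETD1B. HCFC1, a cofactor of many transcription factors, is found with SETD1 and with KMT2A and KMT2B. The nuclear receptor coactivator NCOA6, the BRCT domain protein PAXIP1 (also PTIP) and the H3K27 demethylase KDM6A (also UTX) belong to KMT2C and KMT2D. H3K4me1 itself is best known from enhancers, and it also occurs beside promoters, often to either side of the nucleosome-poor start.

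Promoter sequences show what the start sites under and outside sites look like. Each runs from 250 bases before to 50 bases after the start of a RefSeq transcript on GRCm38.p6 and is written 5′ to 3′ in the direction of transcription, with CG in capitals. Entries that begin within 200 bases of the GENCODE start were used, which gave 5 of the 8 genes. Psip1, Cxxc1 and Ncoa6 are named only. The Wdr82 promoter (chr9:106170679-106170978, plus strand) and that of Paxip1 (chr5:27791501-27791800, minus strand) lay wholly under a site, 300 of 300 bases.
Wdr82: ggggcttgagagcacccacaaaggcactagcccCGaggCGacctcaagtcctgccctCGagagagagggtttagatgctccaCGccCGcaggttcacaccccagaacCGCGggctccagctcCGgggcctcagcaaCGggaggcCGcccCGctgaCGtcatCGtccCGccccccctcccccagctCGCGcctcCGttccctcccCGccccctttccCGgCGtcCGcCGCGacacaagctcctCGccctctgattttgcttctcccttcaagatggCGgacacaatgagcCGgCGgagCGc
Paxip1: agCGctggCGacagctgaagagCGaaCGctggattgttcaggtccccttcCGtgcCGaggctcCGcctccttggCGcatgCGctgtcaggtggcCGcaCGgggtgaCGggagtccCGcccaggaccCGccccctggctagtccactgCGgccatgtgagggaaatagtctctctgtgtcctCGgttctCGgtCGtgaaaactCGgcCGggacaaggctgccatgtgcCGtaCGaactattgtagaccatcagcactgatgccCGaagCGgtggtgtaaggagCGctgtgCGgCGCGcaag
The Kdm6a promoter (chrX:18162325-18162624, plus strand) and that of Hcfc1 (chrX:73966308-73966607, minus strand) have sites nearby, but 0 of their bases lay under one.
Kdm6a: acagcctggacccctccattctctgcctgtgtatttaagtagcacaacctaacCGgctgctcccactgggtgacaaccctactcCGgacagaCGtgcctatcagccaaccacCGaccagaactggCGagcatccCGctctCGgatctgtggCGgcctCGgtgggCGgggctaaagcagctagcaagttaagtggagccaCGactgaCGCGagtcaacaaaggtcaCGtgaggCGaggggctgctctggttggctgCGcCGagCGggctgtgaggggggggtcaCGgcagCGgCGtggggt
Hcfc1: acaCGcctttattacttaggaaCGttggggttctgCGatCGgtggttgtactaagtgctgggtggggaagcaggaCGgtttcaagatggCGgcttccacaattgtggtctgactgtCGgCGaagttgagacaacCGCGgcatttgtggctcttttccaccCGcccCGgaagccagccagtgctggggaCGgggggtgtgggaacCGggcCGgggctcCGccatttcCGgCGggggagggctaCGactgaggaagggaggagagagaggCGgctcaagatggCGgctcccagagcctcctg
The Men1 promoter (chr19:6334729-6335028, plus strand) lay in a stretch without any site.
Men1: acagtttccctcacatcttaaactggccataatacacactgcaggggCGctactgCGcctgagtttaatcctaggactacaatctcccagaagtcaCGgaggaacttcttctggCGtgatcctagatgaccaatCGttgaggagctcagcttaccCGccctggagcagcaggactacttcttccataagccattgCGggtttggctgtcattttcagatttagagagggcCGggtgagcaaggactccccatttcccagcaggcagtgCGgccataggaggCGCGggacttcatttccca

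The promoters differ in CG content. Those of Wdr82 and Paxip1 hold 28 CG each, a number reached by 14.2% of the 32851 promoters in the RefSeq table. Those of Kdm6a and Hcfc1 hold 21, reached by 24.8%, and that of Men1 holds 11, reached by 41.4%, against a median of 7 over the table. Letters were also searched for on both strands, for motifs chosen after these sequences were seen. AAGATGG occurs in Wdr82, at 18 from the start of the RefSeq transcript, and in Hcfc1 at -168 and 24. It occurs in 6.34% of the promoters in the table. GGGCGG, the GC box, is found in all 5 sequences and in 35.7% of the table. CCAAT was found in Men1 alone of the 5, at -121, and in 37.4% of the table. CCGGAAG was found in Hcfc1 at -86 and in 8.86% of the table, GCGCATGC in Paxip1 at -177, overlapping its own reverse match, and in 2.71%, and ACTACAA in Men1 at -175 and in 3.24%. The match of such letters describes the sequence and says nothing about the binding of a factor.

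Sites were found at nearly all of the promoters. A site lay within 1 kb of the most upstream TSS in 7 of the 8 genes, and the exception was Men1. Among all 21938 protein-coding genes, 63.9% had such a site. A CpG island lay within 1 kb of the TSS in 8 of 8 members, against 53.8% of protein-coding genes, so the 11802 protein-coding genes with an island are the closer background. Of these, 93% had a site within 1 kb, or 78.5% of the 325 on chromosome X, where Hcfc1 and Kdm6a lie. The share of 7 in 8 is near this background.

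The promoters with a site took 3 forms. A site covered the TSS base in Psip1, Wdr82, Ncoa6 and Paxip1, a form seen in 56.6% of island promoters. In Cxxc1 and Kdm6a the TSS lay in a gap with a site on both sides, as in 23.7% of island promoters. Hcfc1 had a site downstream only, as in 11.5%. No member had a site upstream only, a form seen in 1.15%. Under merging of sites up to 1 kb apart, the gaps at Cxxc1 and Kdm6a closed, and the TSS lay under a site in 6 members. The set pools control and dTAG libraries, and the paper reports that gains of H3K4me1 after dTAG were nearly all at promoters. Whether each form holds in untreated cells is therefore not known from these positions.

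**Figure D1:**
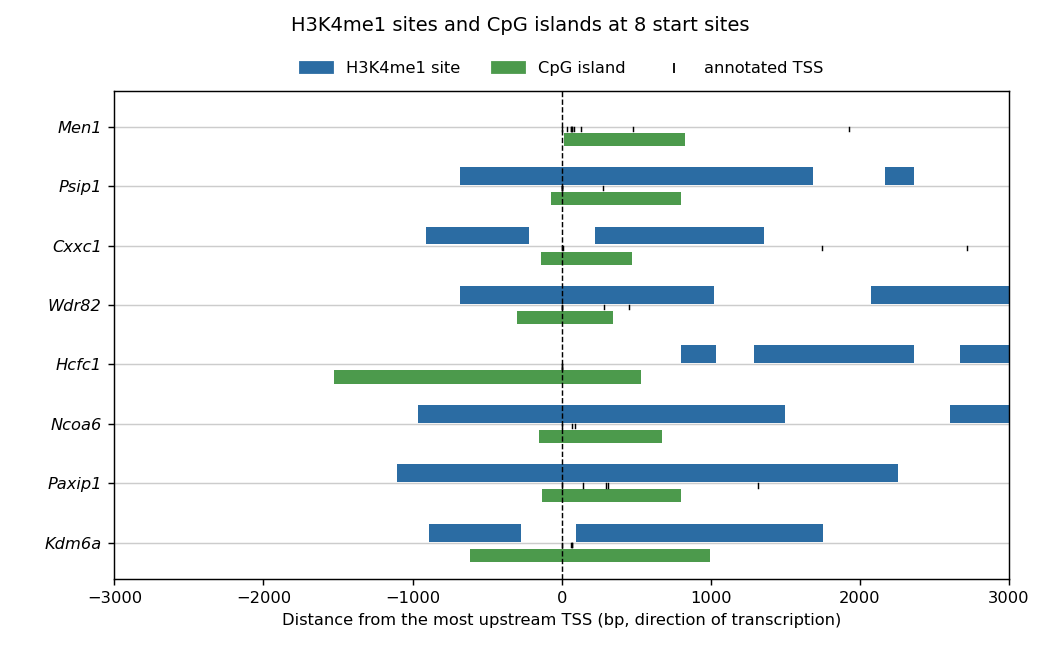
H3K4me1 sites (blue), CpG islands (green) and annotated TSSs (black ticks) within 3000 bp of the most upstream TSS (dashed line), in bp in the direction of transcription, for each of the 8 genes. Blue bars cross the line in 4 genes, flank it in Cxxc1 and Kdm6a, begin 800 bp after it in Hcfc1 and are missing in Men1.

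Over all 8 loci, each the gene with 10 kb on either side, 42 sites were found. They covered 34275 of 498057 bp, or 6.88%. Of these sites, 9 lay within 1 kb of the first TSS and 33 elsewhere. The 9 promoter sites were 236 to 3363 bp wide with a median of 1658 bp, and the 33 others 200 to 3434 bp with a median of 365 bp. Promoter sites had a median of 6.36 CpG per 100 bases and 58% GC, the others 1.02 CpG per 100 bases and 47.7% GC. Repeat-masked bases made up a median of 11.1% of a promoter site and 29.7% of another site. By the centre of the site, 32 lay in introns, 1 in an untranslated exon and 9 in the flanks. Of the 42 sites, 15 were under 300 bp, beside 18.9% of the 160108 sites on chromosomes. A minimum width of 500 bp left 22 of them, and merging left 27.

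**Figure D2:**
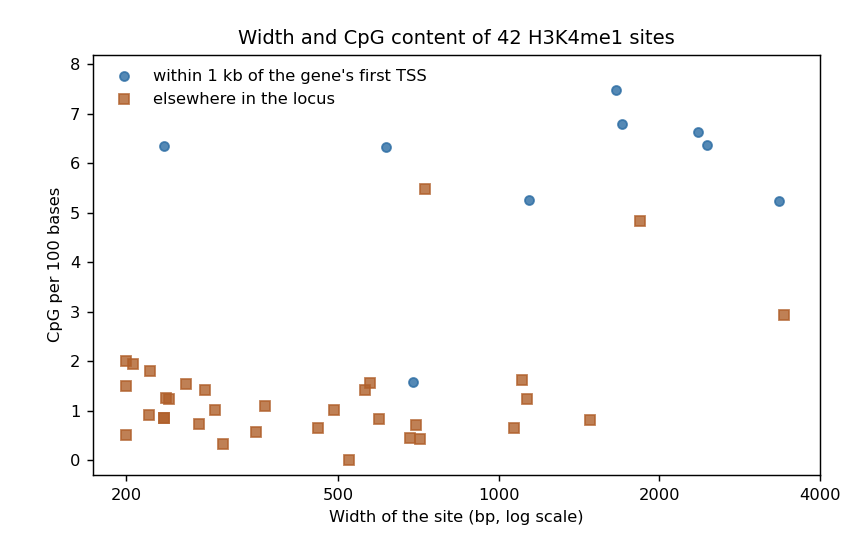
Width of each of the 42 sites (bp, log scale) against its CpG per 100 bases, for the 9 sites within 1 kb of the first TSS of the gene (circles) and the 33 others (squares). Of the circles, 8 lie above 5 CpG per 100 bases, while the site upstream of the Cxxc1 TSS lies at 1.59. The squares with most CpG, at 5.49, 4.84 and 2.94, are sites at the starts of the neighbouring genes Ska1, Ppm1m and Trp53inp2.

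The genes carry 59 annotated TSSs in all, of which 17 lay inside a site, beside 39.5% of the 93513 TSSs of all protein-coding genes. Of the 27 that lie more than 1 kb from the first TSS, 2 were under a site, 1 in Paxip1 at 1318 bp and 1 in Wdr82 at 5749 bp. Over all protein-coding genes, 23.5% of the 38614 TSSs at such a distance were inside a site. Men1, which has no site at all, holds 12 of the 59 TSSs and 3 of the 27. It thus lowers both member shares, and the differences from all genes were not tested.

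Around the TSS, the mean over the 8 genes can be set beside that over island promoters. In the 100 bp bin that begins 400 bp upstream, 75% of the members' bases and 60.3% of those of island promoters lay under a site. In the 100 bp just upstream of the TSS the values were 50% and 55.4%, and in the bin that begins 200 bp downstream 72.1% and 81.3%. Men1 and Hcfc1 had 0% in each of these bins and lower the mean of the members. With only 8 genes, each value rests on few promoters, and the differences were not tested.

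**Figure D3:**
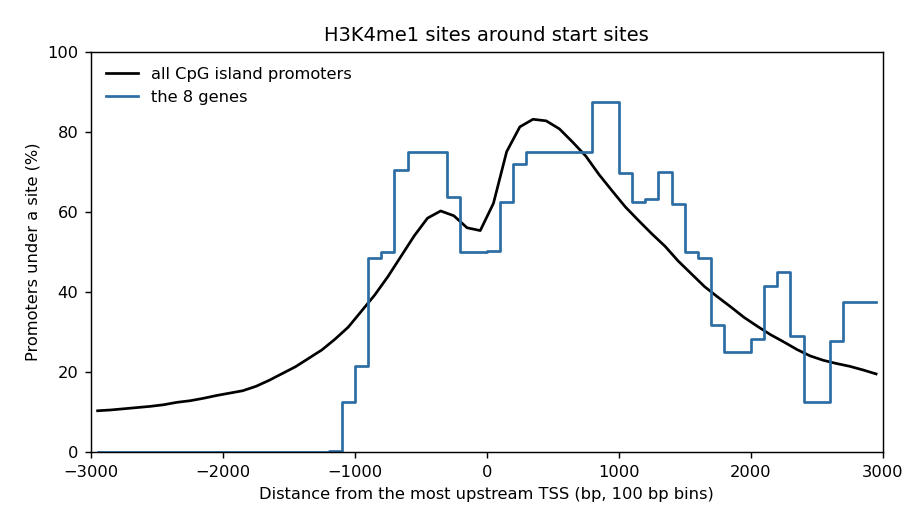
Share of bases under an H3K4me1 site (%) in 100 bp bins from 3000 bp upstream to 3000 bp downstream of the most upstream TSS, for the 8 genes (blue steps) and for CpG island promoters (black line). Both lines have a shoulder upstream and a dip at the TSS. The black line peaks at 83.2% in the bin that begins 300 bp downstream. The blue line returns to 75% there, as upstream. It reaches 87.5% only in the bins that begin at 800 and 900 bp, where the first site of Hcfc1 lies. The blue line is at 0 beyond about 1.1 kb upstream.

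Of the subunits of KMT2A and KMT2B, Psip1 (ENSMUSG00000028484.16, chr4:83455680-83486459, minus strand) had 3 sites over 5.52% of its locus. The first, chr4:83484772-83487140, was 2369 bp wide and ran from 681 bp upstream to 1687 bp downstream of the TSS. It covered the whole 870 bp island and held 6.63 CpG per 100 bases. Among the 6684 island promoters with the TSS inside a site, 63% had a narrower one, with quartiles of 1339, 1979 and 2844 bp. The other sites of Psip1 were 200 bp wide in intron 2 and 236 bp wide in intron 5. The last 17626 bp of the gene were free of sites. Its covered share was higher than in 22.5% of autosomal island genes, for which the median was 11.9%.

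Men1 (ENSMUSG00000024947.17, chr19:6334979-6340891, plus strand) had 0 sites over 25913 bp of gene and flanks. It has 2 islands, 810 bp from 18 to 827 bp after the TSS and 577 bp from 6016 to 6592 bp. The second spans the start of Map4k2, at 6156 bp, and neither had a base under a site. Of all island genes, 3.3% had no site over the gene and its flanks. The region is described further below.

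For SETD1A and SETD1B, Cxxc1 (ENSMUSG00000024560.7, chr18:74216124-74221496, plus strand) had 5 sites over 12.4% of its locus, more than in 51.8% of autosomal island genes. A site of 692 bp ended 218 bp before the TSS and another of 1138 bp began 223 bp after it. The gap between them measured 440 bp, wider than in 54.9% of the 2794 island promoters of this form, whose quartiles were 338, 421 and 566.8 bp. The gap held 10.2 CpG per 100 bases, the upstream site 1.59 and the downstream site 5.27. The densest CpG of the promoter thus lay between the sites, and 40.9% of the 611 bp island was covered. A further site of 728 bp lay upstream, from -9142 to -8415 relative to the TSS, at the start of the neighbour Ska1, a kinetochore gene. The other sites were 281 and 304 bp wide and lay in the flanks.

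Wdr82 (ENSMUSG00000020257.13, chr9:106170928-106191139, plus strand) had 8 sites over 18.8% of its locus, the largest share of the 8 genes and higher than in 71% of autosomal island genes. The site over the TSS, chr9:106170244-106171949, was 1706 bp wide, and 40.1% of TSS-covering sites at island promoters were narrower. It covered the whole 648 bp island. A row of 6 sites of 222 to 1484 bp followed in introns 1 and 2, up to 8741 bp after the TSS. The remaining 11470 bp of the gene were free. A site of 1839 bp in the downstream flank lay at the start of Ppm1m, which encodes a protein phosphatase.

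The microRNA gene Mirlet7g, a member of the let-7 family that represses growth-promoting mRNAs, lies in intron 2 of Wdr82 on the same strand. A site of 222 bp at chr9:106178762-106178983 covered it whole, and sites of 1132 and 365 bp lay to either side. The bases of this site, on the plus strand of GRCm38.p6, are shown with the 88 bases of the hairpin in capitals.
Site over Mirlet7g: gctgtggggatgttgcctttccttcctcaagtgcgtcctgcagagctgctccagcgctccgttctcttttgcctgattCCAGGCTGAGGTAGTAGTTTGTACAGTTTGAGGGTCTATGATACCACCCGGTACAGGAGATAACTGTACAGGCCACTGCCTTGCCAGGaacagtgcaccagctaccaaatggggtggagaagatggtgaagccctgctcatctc
It held 4 CG and 0% repeat-masked bases and touched no CpG island.

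Hcfc1 (ENSMUSG00000031386.14, chrX:73942792-73966357, minus strand), whose product joins several of the enzymes, had 4 sites over 4.75% of its locus. This was higher than in 68.6% of the 325 island genes on chromosome X, where the median was 3.08%. Its island of 2062 bp, from -1527 to 534 relative to the TSS, was the longest of the 8 promoters and had 0 bases under a site. The first site began 800 bp after the TSS. Among the 1358 island promoters with sites downstream only, 97.9% had a shorter distance, with quartiles of 59, 114 and 216.8 bp. This first site was 236 bp wide, sites of 1071 and 681 bp followed in intron 1, and 1 of 274 bp lay at the edge of the downstream flank. At a minimum width of 500 bp, no site was left within 1 kb of this TSS, and 6 members had one. Upstream, the next site lay 32255 bp away. The first site is shown on the minus strand with CG in capitals, chrX:73965322-73965557.
First site of Hcfc1: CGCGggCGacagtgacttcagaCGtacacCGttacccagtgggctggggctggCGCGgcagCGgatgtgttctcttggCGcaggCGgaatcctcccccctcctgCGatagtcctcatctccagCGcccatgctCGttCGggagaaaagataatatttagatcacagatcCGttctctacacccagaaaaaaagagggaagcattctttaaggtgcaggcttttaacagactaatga
It held 15 CG, or 6.36 CpG per 100 bases, while the free bases from 1000 bp upstream to 799 bp downstream held 5.5. The 2 wider sites that follow held 0.654 and 0.441. The narrow site had the CpG density of the promoter, although it touched no island by the rule used.

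Of the subunits of KMT2C and KMT2D, Ncoa6 (ENSMUSG00000038369.14, chr2:155390656-155473894, minus strand) had the most sites, 11 over 9.4% of its locus. Of autosomal island genes, 40.1% had a lower share and 79.5% fewer sites, a number that is not scaled to locus length. The site over the TSS, chr2:155472398-155474858, was 2461 bp wide, and 65.6% of TSS-covering sites at island promoters were narrower. It covered the whole 827 bp island. Of the other sites, 7 of 200 to 1104 bp lay between 15346 and 31097 bp after the TSS, in introns 1 and 2, and 1 of 459 bp lay nearer to the start. The internal start that RefSeq lists, at 33111 bp, had no site, and the nearest one lay 2014 bp away. It lies in a stretch of 44953 bp without sites, which ends at a 200 bp site in intron 14. A site of 3434 bp in the downstream flank, the widest over the 8 loci, lay at the start of Trp53inp2, an autophagy gene.

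Paxip1 (ENSMUSG00000002221.11, chr5:27740080-27791691, minus strand) had 5 sites over 7.57% of its locus, above 31.9% of autosomal island genes. Its TSS-covering site, chr5:27789432-27792794, was 3363 bp wide, the widest of the 4 such sites among the members. It was wider than 83.4% of those at island promoters and covered the whole 935 bp island. A group of 3 sites of 294, 713 and 562 bp lay in intron 4, 12499 to 15083 bp after the TSS, and 36528 bp of the gene beyond them were free. The last site, of 491 bp, lay in the downstream flank. Upstream of the TSS-covering site, no site was found for 217 kb, a stretch that holds 1 coding TSS and 0 island promoters. In this stretch 4.41% of the 75-base words also occur on an assembly patch, as described for Men1 below.

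Kdm6a (ENSMUSG00000037369.17, chrX:18162575-18279936, plus strand) is the longest of the 8 genes and escapes X inactivation in the mouse. It had 6 sites over 2.6% of its locus, above 44.6% of island genes on chromosome X. By number of sites, which is not scaled to locus length, 82.5% of these genes had fewer. A site of 616 bp ended 273 bp before the TSS and one of 1658 bp began 97 bp after it, with a gap of 369 bp. In 35.9% of island promoters of this form the gap was narrower. The gap held 6.78 CpG per 100 bases, against 6.33 in the upstream and 7.48 in the downstream site. In contrast to Cxxc1, CpG density differed little between the gap and its flanks, and 77.1% of the 1610 bp island was covered. The other 4 sites were 206 to 525 bp wide and lay in introns, and a run of 71827 bp inside the gene held none.

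**Figure D4:**
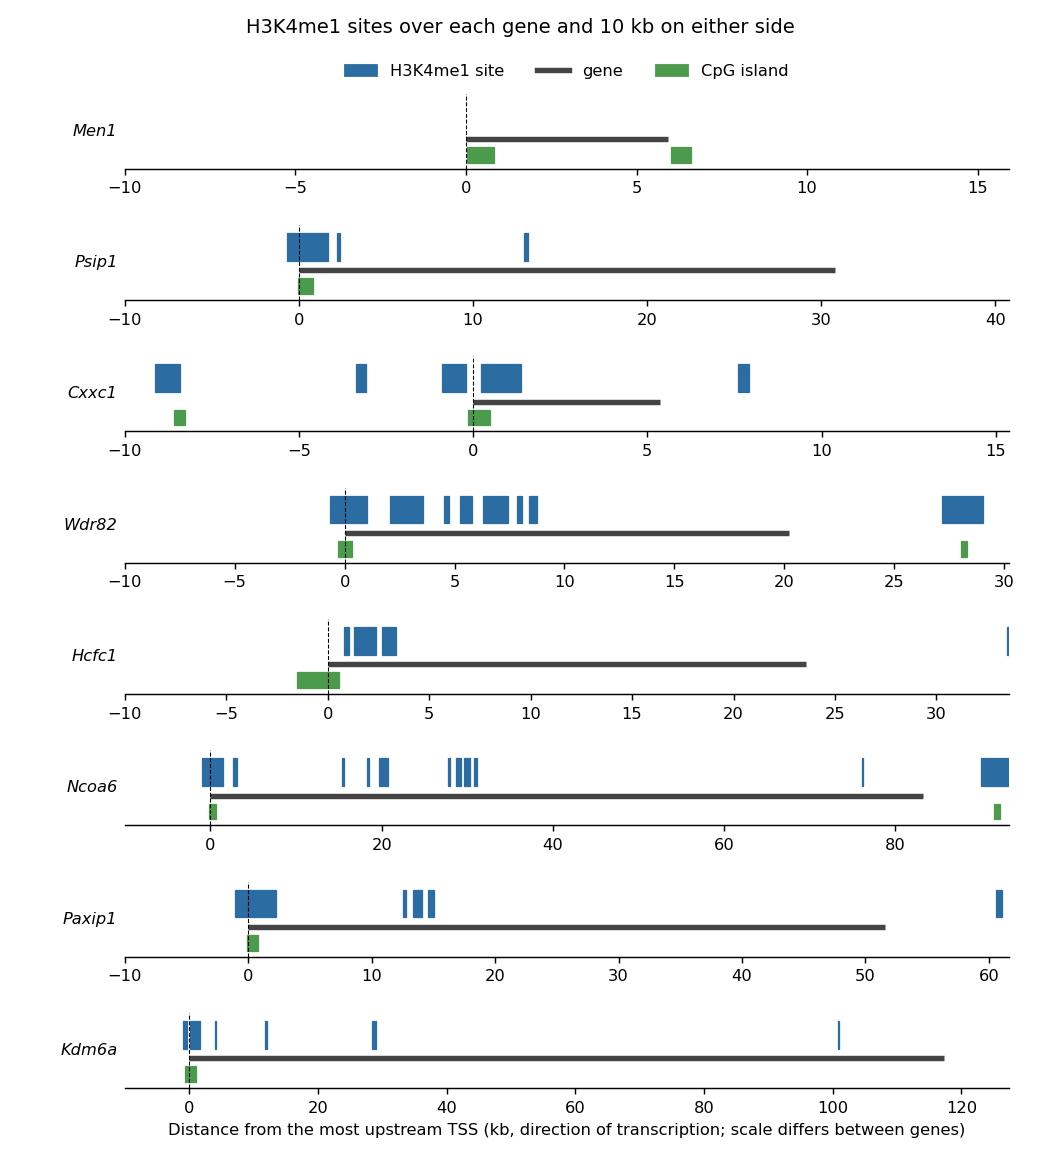
H3K4me1 sites (blue), gene bodies (grey lines) and CpG islands (green) over each gene with 10 kb on either side, in kb from the most upstream TSS (dashed line) in the direction of transcription. The scale differs between genes. Sites gather within about 3 kb of the TSS and in early introns, and later parts of Ncoa6, Paxip1 and Kdm6a are mostly free.

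Men1 lay in a stretch of 657 kb without a site, chr19:6157664-6814448. By length it ranked 3 of 4852 gaps between neighbouring sites on chromosome 19 and 247 of 157529 on the autosomes. The nearest site upstream lay 177 kb from the Men1 TSS, measured 434 bp and overlapped Batf2, a transcription factor gene. The nearest one downstream lay 479 kb away and measured 241 bp, and the closest TSS to it was that of Rps6ka4, a kinase gene, at 26067 bp. Sites were dense on both sides, with 166 per Mb in the 500 kb before and 170 per Mb in the 500 kb after the stretch.

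The stretch is gene-rich. It holds 13 coding TSSs, of which 10 have a CpG island within 1 kb, where the most for any gap was 11. Beside Men1 these are Majin, a meiotic telomere gene, Ppp2r5b, a phosphatase subunit, Atg2a, an autophagy gene, Ehd1 of endocytic recycling, the kinase genes Cdc42bpg and Map4k2, the splicing factor gene Sf1, Rasgrp2, an exchange factor for Ras-like GTPases, and the synaptic gene Nrxn2. That none of them has a site follows from how the stretch was defined.

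To see how often the sequence of each locus recurs, it was split into words of 75 bases. These were counted over the chromosomes, contigs and assembly patches of the reference. Scaffolds of alternate loci were not counted. On the chromosomes and unplaced contigs alone, 100% of the words within 1 kb of the Men1 TSS and 99% of those of its locus occur once. GRCm38.p6 also has 74 patch scaffolds, which carry corrected or alternative copies of parts of the chromosomes. All words (100%) of the Men1 locus occur again on a patch, those of the gene on 1 scaffold of 507 kb, and 0% occur once when patches are counted. In the other 7 members, 97.4 to 100% of the promoter words occur once with patches counted. The copied part, chr19:6183084-6683994, spans 501 kb of the stretch. A further 126 kb are unsequenced bases, and 30.3 kb of the stretch are neither. All 10 island promoters in it have at least 90% of their words on the patch.

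The same was measured for all chromosomes. Copies of at least 10 kb numbered 191, spanned 20.5 Mb and held 9 sites, or 0.44 per Mb, against 60.9 per Mb elsewhere. Of the 137 island promoters with at least 90% of words on a patch, 0% had a site within 1 kb. Of the 11643 with less than 10%, 94.1% had one. No site over the gene and its flanks was found for 2.22% of these 11643. The copied promoters make up 16.5% of the 830 island promoters without a site. The deposited set also has 36 sites on 12 scaffolds outside the chromosomes. Of these scaffolds, 10 with 28 sites are not in the annotation of the primary assembly. The names of these 10 were not matched to the reference sequences, so whether any is a patch is not known. The study's methods name GRCm38.p6 from GENCODE as the reference and a filter on unusable reads. Whether the patch scaffolds were among the sequences aligned to is not given in the sources used here, and the table holds no reads, so the part of the copy in the absence of sites at Men1 was not tested. A Men1 promoter without H3K4me1 and one at which no site could be called cannot be told apart from these positions.

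**Figure D5:**
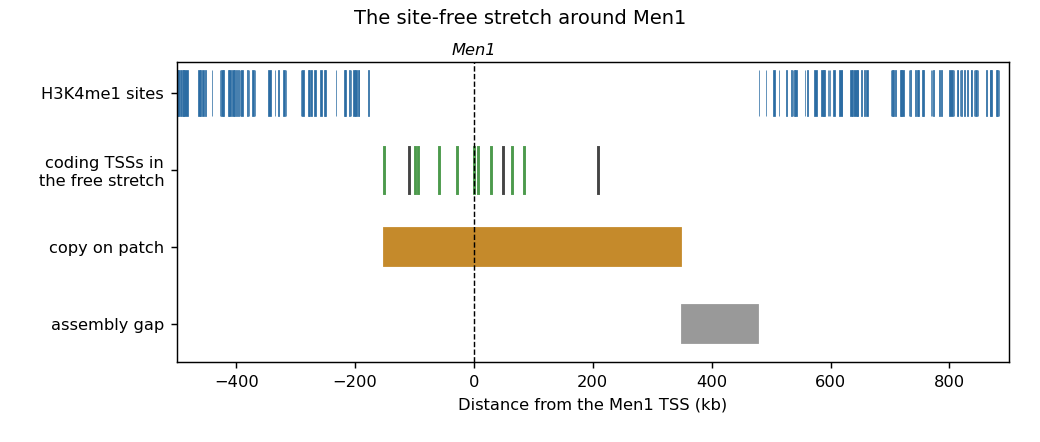
Map from 500 kb upstream to 900 kb downstream of the Men1 TSS (dashed line), in kb, with H3K4me1 sites (blue), the 13 coding TSSs in the site-free stretch (green with a CpG island, grey without), the part copied on a patch scaffold (ochre) and the span of the assembly gap (light grey). The copy of 501 kb and the gap fill nearly all of the 657 kb without sites.

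A list of 17 other genes of the complexes was viewed in the same way. A site within 1 kb of the most upstream TSS was found in 14, beside 63.9% of all protein-coding genes, and 11 have a CpG island there. The TSS lay under a site in 5, in a gap between 2 sites in 7 and before a downstream site in 2. Over all protein-coding genes, with an island or without, these forms made up 39.5%, 13.7% and 8.69%. The 3 without a site were Ash2l and Dpy30, which encode core subunits, and Uty, the relative of Kdm6a on chromosome Y. Ash2l and Dpy30 had a site within 1 kb of another of their TSSs, and Uty had none over its locus. The paper does not give the sex of the NG3 clone, so whether these cells carry chromosome Y is not known from it. The 17 loci held 0 to 17 sites, with a median of 16.6% of bases covered, and the highest number was found at Kmt2a. The H3K27 demethylase gene Kdm6b had an 11529 bp site over its TSS and 56.6% of its locus covered, against 2.6% for its X-linked relative Kdm6a with a gap at the TSS. These shares come from unlike classes of genes, and locus length, 137362 bp for Kdm6a, was not matched. The median was 3.08% for island genes on chromosome X and 11.9% for autosomal ones, and Kdm6b, an autosomal gene, has no island at its TSS. The methyltransferase genes Kmt2d and Setd1b had TSS-covering sites of 5517 and 4523 bp, wider than the 3363 bp of Paxip1.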

How the data were processed

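Per the labels and the methods, the authors used Trim Galore for trimming, BWA for alignment to mm10 (GRCm38.p6), SAMtools for filtering, Picard to merge replicates and MACS2 for broad peaks. Versions and thresholds are not given in the sources used here. The deposited table used here holds positions in bases, starts counted from 0, in 1 set over all libraries, with no other quantity. The table of changed sites that the study names was not used here. Coordinates are printed counted from 1.

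Sites were set against GENCODE release M21 and GRCm38.p6 in Python 3.11.15 with numpy 2.4.6 and numba 0.67.0, and drawn with matplotlib 3.10.9. The TSS was the most upstream of a gene, a promoter 1 kb to either side, and 1 bp of overlap sufficed. CpG islands (16099) came from sequence without repeats, where each CpG scored 17 and any further base -1, with lengths over 200 bp, at least 50% GC and an observed to expected ratio over 0.6. Words of 75 bases were counted on either strand. The functions were tested on simulated data. Positions pooled over libraries allow no statistical test, although the design has 2 libraries per condition.

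The members and lists were chosen with earlier results of these data known. Named are the members, genes of the list without a promoter site and up to 3 others, coding genes in the flanks, and island genes and border genes of the Men1 stretch. Wdr5 and other genes of the core are named as background. Mirlet7g, Kmt2a and the motifs were chosen after their values were seen.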

Additional observations from a re-analysis of the deposited data

How the results depend on the processing

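The 16 counts and values were recomputed under 64 alternatives, of which 46 left them within the set limits and 18 moved them, 7 of these for the main values. The limits differed between results. A change from 4 to 6 members with the TSS under a site was within them, while 6.88% to 6.68% of bases covered was not. Some alternatives could not move a value, such as those for Men1, with no site within 177 kb. The count of 46 is therefore no measure of robustness. Merging sites within 1 kb left 0 members with a gap between 2 sites and 27 sites over the 8 loci. Keeping sites of at least 500 bp left 22 sites, 5.81% of bases covered and a stretch of 697603 bp around Men1. Without flanks, 6.68% of bases were covered. With promoters copied on patches left out, an alternative added after seeing the data, 94.1% of island promoters had a site. No paired analysis was possible because the deposited positions are pooled over libraries, and for the same reason no library could be left out. Depth is not in the table, so a site that was missed cannot be told from one that was absent.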
